A study of Mus musculus with 36 samples.

Results

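The extracellular matrix of muscle is built by secreted proteins that assemble, signal through or crosslink its fibers, and 10 of their genes were followed across the study: Fn1, Postn, Sparc, Tnc, Thbs1, Lox, Loxl1, Loxl2, Fbn1 and Eln. They were chosen by name, as the rows of the count tables whose Ensembl IDs carry these symbols, and make up 10 of the 51912 gene IDs counted. RNA was taken from the tibialis anterior (TA), a mostly fast muscle, and from the soleus, a slow muscle, of male mice at 3 months of age. The WT mice were C57BL/6. The ∆Ig3-MuSK mice carry a germline CRISPR-Cas9 deletion of Musk exons 6 and 7, made in C57BL/6 animals and backcrossed to that strain, which removes the third immunoglobulin domain of the muscle-specific kinase MuSK and leaves the rest of the receptor. Each muscle of each genotype was represented by 9 libraries of whole muscle, which made 4 groups and 36 libraries in all. Whole muscle mixes myofibers with fibroblasts, vessels, nerve and tendon ends, so a lower level of a gene can reflect fewer cells of a type or less RNA per cell, and these cannot be told apart here.

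These proteins fall into 3 working groups. Fibronectin (Fn1) is an adhesive glycoprotein that cells pull into fibrils, and periostin (Postn), SPARC, tenascin-C (Tnc) and thrombospondin 1 (Thbs1) are matricellular proteins, which sit in the matrix but act mainly on cell adhesion and on growth factors. Lysyl oxidase (Lox) and its relatives Loxl1 and Loxl2 are copper-dependent enzymes that oxidize lysines of collagen and elastin so that the fibers crosslink. Fibrillin 1 (Fbn1) forms the microfibrils on which elastin (Eln) is laid down, and fibrillin microfibrils also hold latent TGF-β and BMPs. In muscle most of this matrix is made by fibroblastic cells of the connective tissue and by cells at the junction with the tendon.

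Library totals ran from 43492062 to 78660422 counts. Slow fiber markers summed to between 16331 and 23814 CPM in the WT soleus and between 32.8 and 88.1 CPM in the WT TA, which fits the muscle labels (CPM are counts per 1000000 counts of the library, scaled over all 36 libraries with TMM factors). Every member had counts in every library, and the smallest was 17 counts of Tnc, with counts of 100 or more elsewhere. Musk, the targeted gene, had a ∆Ig3-MuSK to WT log2 fold change of −0.44 in soleus (standard error 0.13, edgeR adjusted p = 0.0978), and in the TA it was −0.46 (edgeR adjusted p = 0.135, standard error 0.12). A gene count pools reads of all Musk exons and cannot single out the deleted ones.

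A few libraries stood apart for the matrix genes. WT soleus replicate 7 was the highest of its group for 9 of the 10 members, all except Thbs1. ∆Ig3-MuSK soleus replicate 8 was the lowest of its group for 7 members, and ∆Ig3-MuSK soleus replicate 2 was the lowest for the other 3, Loxl1, Fbn1 and Eln. WT TA replicate 9 was the highest of its group for all 10. The 7 tendon markers (Scx, Tnmd, Mkx, Fmod, Chad, Comp and Thbs4) summed to 24.6 CPM in ∆Ig3-MuSK soleus replicate 8, against 245 to 522 CPM in the other 8 ∆Ig3-MuSK soleus libraries and 296 to 772 CPM in the WT soleus. In that library Mkx was at 0, Tnmd at 0.249 CPM and Chad at 0.226 CPM. The map of all libraries shows these columns.

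**Figure D1:**
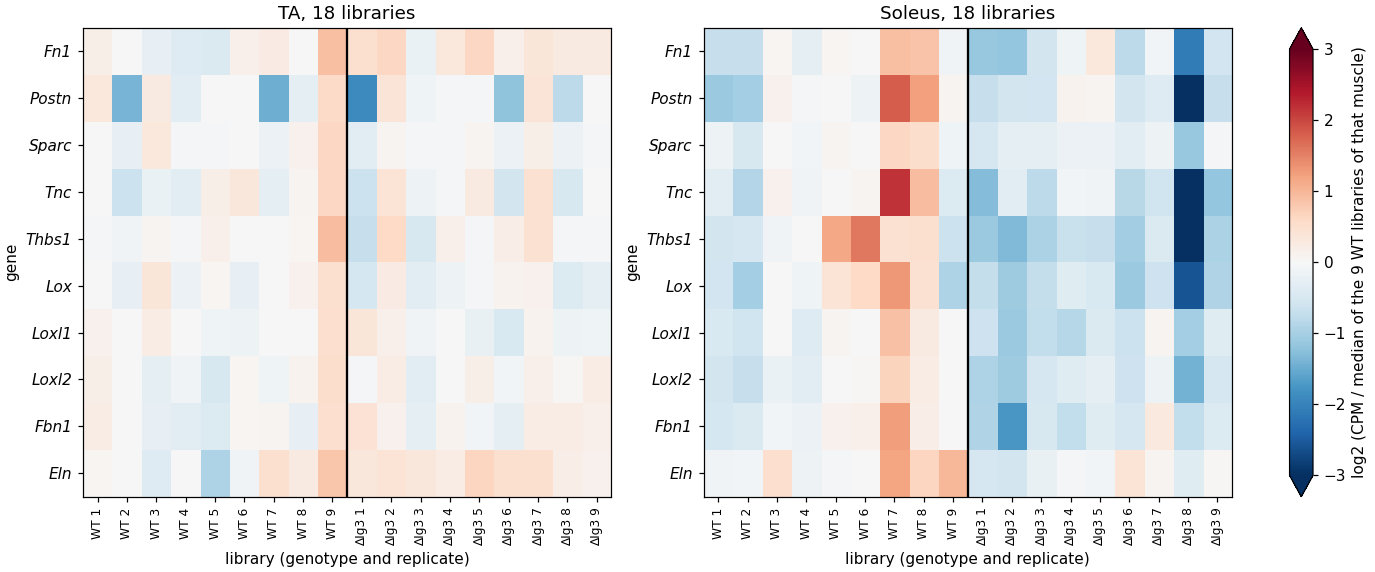
Level of each of the 10 genes (rows) in each library (columns) of the TA and the soleus, as the log2 of its CPM over the median of the 9 WT libraries of that muscle; the black line parts WT from ∆Ig3-MuSK (∆Ig3). WT soleus replicate 7 is the most strongly red column, highest for 9 genes, and ∆Ig3-MuSK soleus replicate 8 the most strongly blue, lowest for 7.

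Levels were first set against each other per length, as RPKM (CPM per kilobase of merged exons). Sparc was far above the other members in every group, at 50.4 ± 10.3 RPKM in the WT TA and 91.4 ± 22.9 RPKM in the WT soleus (mean ± SD, n = 9). Its lowest WT soleus library (62.0 RPKM) lay above the highest Fn1 library there (28.9 RPKM), and Sparc did not overlap any other member within a group. Fn1 was next in the WT soleus at 16.6 ± 7.08 RPKM, followed by Thbs1 (9.10 ± 5.52), Fbn1 (9.07 ± 4.13), Loxl1 (8.07 ± 2.75), Postn (7.81 ± 5.91), Loxl2 (5.35 ± 1.60), Eln (4.78 ± 1.85) and Lox (3.23 ± 1.75). From Thbs1 to Lox, neighbours in this order differed by less than the larger of their SDs, and Postn and Loxl2 were the 1 pair that differed by more than the smaller. Tnc was last at 0.901 ± 0.786 RPKM. In the ∆Ig3-MuSK soleus Thbs1 stood at 3.41 ± 1.23 RPKM, below Fn1, Fbn1, Loxl1, Postn and Loxl2. In the WT TA the members other than Sparc and Tnc lay between 1.62 ± 0.297 RPKM (Lox) and 4.41 ± 0.672 RPKM (Loxl1).

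In the ∆Ig3-MuSK soleus, Thbs1 fell, and it was the 1 member of 10 that passed the test (edgeR's quasi-likelihood test, adjusted p under 0.05 and at least 1.2-fold). Over all 19439 genes tested, 0.952% were called and 0.586% were called lower. All 10 members had lower fitted means in ∆Ig3-MuSK than in WT, with log2 fold changes from −1.42 for Thbs1 to −0.41 for Sparc and a median of −0.69, where the median over all genes was −0.0017 and 50.6% of genes were below 0. All 10 were lower at an unadjusted p under 0.05, as were 10.1% of all genes. The members vary together between libraries, so the 10 do not count as separate pieces of evidence. Without WT soleus replicate 7 and ∆Ig3-MuSK soleus replicate 8, all 10 still lay below 0, the median was −0.44, 7 had an unadjusted p under 0.05 and 0 were called, where 0.432% of all genes were called. That setting was chosen after the data were seen.

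**Figure D2:**
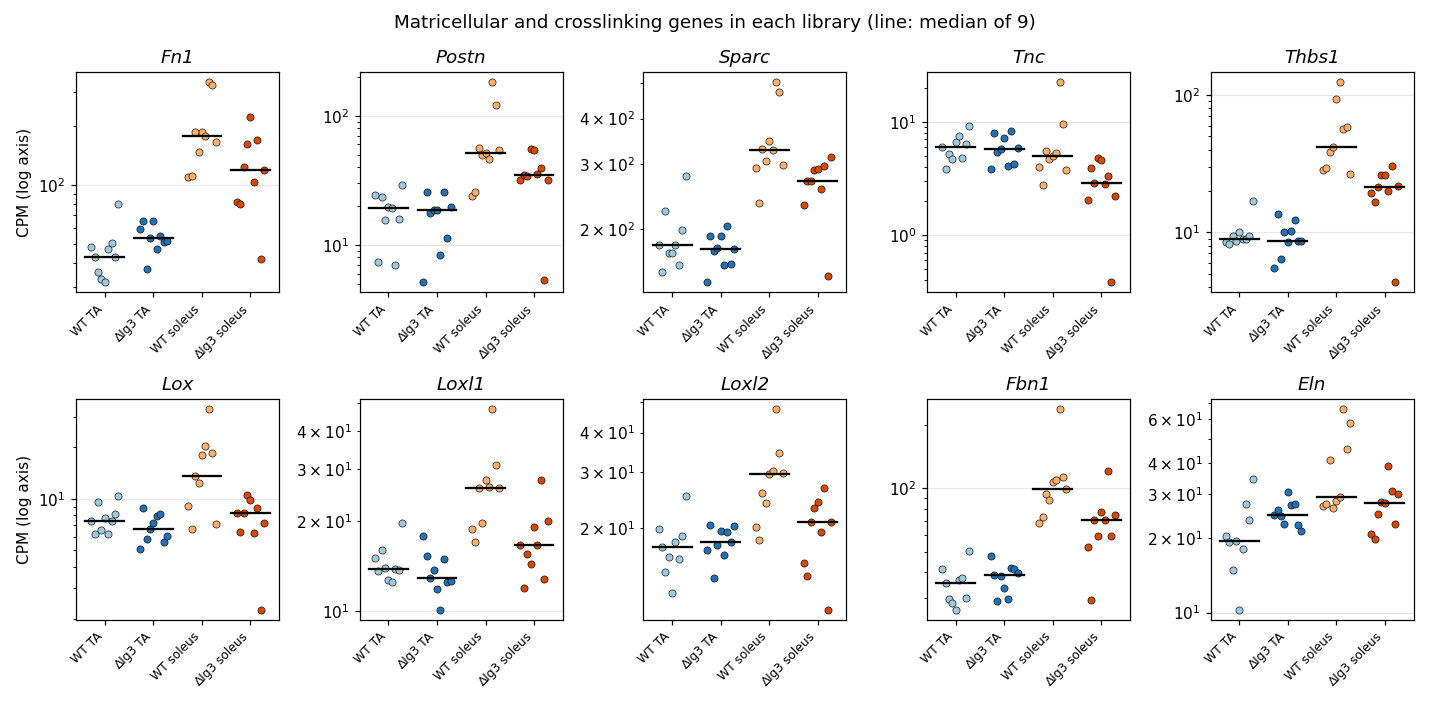
CPM of each of the 10 genes (log axes, each panel with its own range) in the 9 libraries of each genotype (WT or ∆Ig3-MuSK, written ∆Ig3) and muscle; each point is a library and each line the median of its group. In the soleus the ∆Ig3-MuSK points reach lower than the WT points for all 10 genes, with overlap for each. In the TA the genotypes overlap for all 10 genes, but for Eln every ∆Ig3-MuSK point lies above the WT median.

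Thbs1 (ENSMUSG00000040152; chr2:118111876-118127133 in GRCm38, plus strand) encodes thrombospondin 1, which can activate latent TGF-β and inhibits the growth of blood vessels. It lay between 26.6 and 125 CPM in the WT soleus (median 41.6) and between 4.32 and 30.7 CPM in the ∆Ig3-MuSK soleus (median 21.5). Of the 9 ∆Ig3-MuSK libraries, 8 lay below the lowest WT library, and replicate 7 at 30.7 CPM was the exception. The fold change was −1.42 on the log2 scale (standard error 0.32, edgeR adjusted p = 0.0378). The call was close to the threshold: over the 18 fits that left out 1 library, the adjusted p ran from 0.0175 to 0.0813, and the call was lost without any 1 of WT soleus replicates 3 to 8 or ∆Ig3-MuSK soleus replicates 1 to 5, while the log2 fold change stayed between −1.51 and −1.17. Without WT soleus replicate 7 and ∆Ig3-MuSK soleus replicate 8 it was −1.28 (adjusted p = 0.0555). WT soleus replicates 5 and 6 held the highest Thbs1, at 93.1 and 125 CPM. The summed level of 14 immediate early genes ran from 207 to 364 CPM in the WT soleus and from 162 to 323 CPM in the ∆Ig3-MuSK soleus. Replicate 6 was the highest of the WT soleus at 364 CPM and replicate 5 was at the median of 319 CPM, while replicate 9, the second highest at 354 CPM, had the lowest Thbs1 of the WT soleus. Of these 14 genes, 13 were below 0 in the ∆Ig3-MuSK soleus and 2 fell, Egr3 and Fosl2, and their part in the Thbs1 result was not tested. The libraries carry no strand, and Thbs1 shares 208 bp of exons with the opposite-strand lincRNA Gm29233, whose mean was 4.19 CPM in the WT soleus and 1.46 CPM in the ∆Ig3-MuSK soleus.

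Tenascin-C and periostin are both enriched where muscle meets tendon and in remodelling connective tissue. Tnc (chr4:63959785-64047015, minus strand) ran from 2.75 to 22.5 CPM in the WT soleus (median 5.02) and from 0.384 to 4.77 CPM in the ∆Ig3-MuSK soleus (median 2.89). All 9 ∆Ig3-MuSK libraries lay below the WT median, and 5 WT libraries lay above every ∆Ig3-MuSK library. The log2 fold change was −1.24 (standard error 0.39, edgeR adjusted p = 0.107) and −0.61 (standard error 0.22, adjusted p = 0.190) without the 2 libraries that stood apart. Postn (chr3:54361109-54391037, plus strand) ran from 23.8 to 183 CPM in the WT soleus (median 51.5) and from 5.36 to 55.6 CPM in the ∆Ig3-MuSK soleus (median 35.0). The groups overlapped broadly, and only replicate 8 of the ∆Ig3-MuSK soleus lay below every WT library. Its log2 fold change of −0.93 (standard error 0.38, edgeR adjusted p = 0.196) moved to −0.44 (standard error 0.26, adjusted p = 0.424) without those 2 libraries.

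Fn1 (chr1:71585520-71653200, minus strand) and Sparc (chr11:55394500-55423183, minus strand) were the members with the most counts. Fn1 lay between 110 and 337 CPM in the WT soleus (median 179) and between 41.5 and 224 CPM in the ∆Ig3-MuSK soleus (median 119). It was below the WT median in 8 of 9 ∆Ig3-MuSK libraries and below the lowest WT library in 4. The log2 fold change was −0.67 (standard error 0.28, edgeR adjusted p = 0.195). Sparc, a collagen-binding protein that fibroblasts secrete as collagen is laid down, lay between 235 and 504 CPM in the WT soleus (median 327) and between 149 and 315 CPM in the ∆Ig3-MuSK soleus (median 270). All 9 ∆Ig3-MuSK libraries were below the WT median, 2 of them below every WT library. Its difference was the smallest of the members at −0.41 (standard error 0.15, edgeR adjusted p = 0.140).

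Among the crosslinking enzymes, Lox on chromosome 18 is the founding lysyl oxidase. It ran from 6.70 to 33.3 CPM in the WT soleus (median 13.5) and from 2.26 to 10.6 CPM in the ∆Ig3-MuSK soleus (median 8.25). All 9 ∆Ig3-MuSK libraries lay below the WT median and 6 WT libraries lay above every ∆Ig3-MuSK library, while WT replicates 1, 2 and 9 lay within the ∆Ig3-MuSK range. The log2 fold change of −1.04 (standard error 0.29, edgeR adjusted p = 0.0725) did not pass. Loxl1 (chr9:58287738-58313186, minus strand), which is best known for crosslinking elastin, ran from 17.1 to 47.5 CPM in the WT soleus (median 25.8) and from 11.9 to 27.6 CPM in the ∆Ig3-MuSK soleus (median 16.6). Of the ∆Ig3-MuSK libraries 6 lay below every WT library, the most for any member after Thbs1, and the log2 fold change was −0.64 (standard error 0.18, edgeR adjusted p = 0.0799).

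Loxl2 (chr14:69609068-69695834, plus strand) ran from 18.3 to 47.4 CPM in the WT soleus (median 29.7) and from 11.1 to 26.9 CPM in the ∆Ig3-MuSK soleus (median 20.9). All 9 ∆Ig3-MuSK libraries were below the WT median. The log2 fold change was −0.57 (standard error 0.18, edgeR adjusted p = 0.104). The level of Loxl2 is uncertain, because 42.9% of the 50-base stretches of its annotated transcripts occur unchanged in Gm21451, an unprocessed pseudogene at chr14:69390854-69480287, and how reads that match both were counted is not given in the sources used here. Loxl2 also shares 301 bp of exons with the opposite-strand gene Gm27177, whose mean was 67.3 CPM in both soleus groups, 111 CPM in the WT TA and 108 CPM in the ∆Ig3-MuSK TA.

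Fbn1 and Eln build the elastic fiber. Fbn1 (chr2:125300594-125507993, minus strand) ran from 68.6 to 237 CPM in the WT soleus (median 98.8) and from 29.4 to 120 CPM in the ∆Ig3-MuSK soleus (median 70.2). It was below the WT median in 8 of 9 ∆Ig3-MuSK libraries, and replicate 7 at 120 CPM was the exception. The log2 fold change was −0.70 (standard error 0.23, edgeR adjusted p = 0.122). Eln (chr5:134702593-134747323, minus strand) ran from 26.4 to 66.0 CPM in the WT soleus (median 29.1) and from 19.7 to 38.8 CPM in the ∆Ig3-MuSK soleus (median 27.5). The medians were close, and the 4 highest WT libraries, between 41.0 and 66.0 CPM, lay above every ∆Ig3-MuSK library. The log2 fold change was −0.53 (standard error 0.19, edgeR adjusted p = 0.137). Fbn1 shares 2442 bp of exons with the opposite-strand gene Gm9913 and Eln shares 267 bp with Gm30003, while Fn1 shares 292 bp with Apol7d and Tnc 176 bp with 8030451A03Rik.

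The number of members called in the soleus depended on the fit. With 1 fit over all 36 libraries, in which the TA libraries also inform the estimate of the spread, 6 members were called lower (Tnc, Thbs1, Lox, Loxl1, Loxl2 and Fbn1), and 1.5% of all genes were called. DESeq2 called 3 (Thbs1, Lox and Loxl1) and 2.5% of all genes. In every setting run, the log2 fold changes of all 10 members in the soleus were below 0.

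In the TA, 0 of the 10 members were called between the genotypes with edgeR's quasi-likelihood test, 0 had an unadjusted p under 0.05, and DESeq2 and limma-voom also called 0. Over all 20075 genes, edgeR called 0.0149% and 24.1% had an unadjusted p under 0.05. DESeq2 called 1.14% of all genes and limma-voom with sample quality weights 0.747%. The log2 fold changes of 4 members were above 0 and those of 6 below (50.7% of all genes lay below 0), from −0.18 for Lox (standard error 0.11) to 0.27 for Eln (standard error 0.15). Thbs1 lay between 8.25 and 16.9 CPM in the WT TA (median 8.91) and between 5.52 and 13.5 CPM in the ∆Ig3-MuSK TA (median 8.60), a log2 fold change of −0.09 (standard error 0.16, edgeR adjusted p = 0.744). The 2 ranges overlapped over most of their length. Eln lay between 10.3 and 34.6 CPM in the WT TA (median 19.5) and between 21.3 and 30.6 CPM in the ∆Ig3-MuSK TA (median 24.8). All 9 ∆Ig3-MuSK TA libraries lay above the WT median for Eln and 6 WT libraries lay below every ∆Ig3-MuSK library, but the adjusted p was 0.271 with edgeR. Fn1, the next highest, had a log2 fold change of 0.24 (standard error 0.14, edgeR adjusted p = 0.296).

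**Figure D3:**
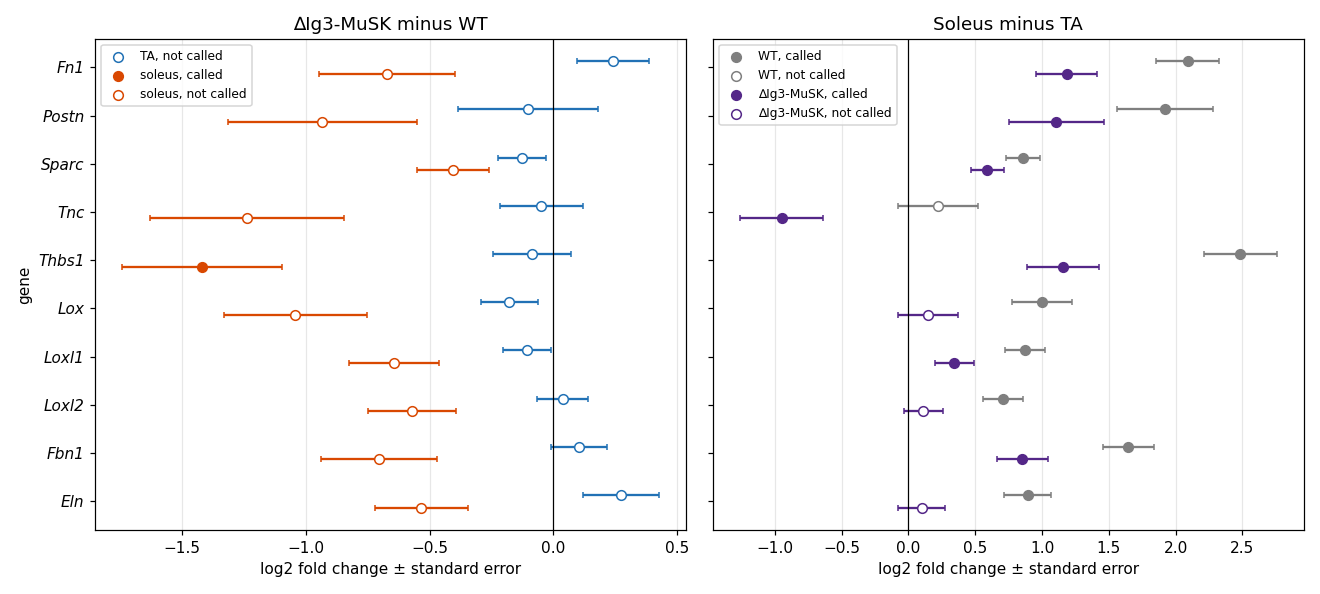
Log2 fold change ± standard error of each gene between genotypes in the TA and the soleus (left) and between soleus and TA in WT and ∆Ig3-MuSK (right); filled points were called (edgeR adjusted p under 0.05, at least 1.2-fold). Left, all 10 soleus values lie below 0 and Thbs1 is filled; right, 9 WT values and 7 ∆Ig3-MuSK values are filled, and Tnc in ∆Ig3-MuSK is the 1 filled point below 0.

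More members were called between the muscles than between the genotypes. In WT, 9 of the 10 members were called higher in the soleus than in the TA, all except Tnc, where 57.5% of 20841 genes were called and 30.2% were called higher. The largest difference was that of Thbs1, with a log2 fold change of 2.48 (standard error 0.27, edgeR adjusted p = 3.72e-10), followed by Fn1 at 2.09 (standard error 0.23), Postn at 1.92 (standard error 0.36) and Fbn1 at 1.65 (standard error 0.19). For Thbs1, Fn1 and Fbn1 the lowest WT soleus library lay above the highest WT TA library, as for 14.6% of genes, and for the other members the muscles overlapped. Postn lay between 6.99 and 29.1 CPM in the WT TA, and 7 of the 9 WT soleus libraries were above that range. The crosslinking enzymes and Eln rose less, with log2 fold changes of 1.00 for Lox, 0.87 for Loxl1, 0.71 for Loxl2 and 0.89 for Eln, and Sparc was 0.86 higher. Tnc differed by 0.22 (standard error 0.30, edgeR adjusted p = 0.524) and by −0.26 (standard error 0.20, adjusted p = 0.254) without the 2 libraries that stood apart.

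In ∆Ig3-MuSK mice, 7 members were called between the muscles, 6 of them higher in the soleus and 1 lower, where 28.5% of genes were called higher and 27.6% lower. Fn1 was 1.19 higher on the log2 scale (standard error 0.23), Thbs1 1.16 (standard error 0.27), Postn 1.11 (standard error 0.35), Fbn1 0.85 (standard error 0.19), Sparc 0.59 (standard error 0.13) and Loxl1 0.34 (standard error 0.15, edgeR adjusted p = 0.0408). Tnc was lower in the soleus, with a log2 fold change of −0.95 (standard error 0.31, edgeR adjusted p = 0.00776), and 6 ∆Ig3-MuSK soleus libraries lay below the lowest ∆Ig3-MuSK TA library (3.82 CPM). Lox at 0.15, Loxl2 at 0.11 and Eln at 0.10 were not called. The Loxl1 call was lost, with an adjusted p up to 0.149, without any 1 of WT TA replicate 5, ∆Ig3-MuSK TA replicates 3, 4, 5, 6, 8 and 9 and ∆Ig3-MuSK soleus replicates 5, 7 and 9, and also with upper-quartile factors, with no filter on low counts or with limma-voom without a block. Limma-voom with the label number as a block kept it (adjusted p = 0.0379). The comparisons of genotypes and of muscles use the same libraries, so their values are set side by side and not counted as separate support.

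Whether the genotype difference itself differed between the muscles was tested with an interaction term over the 36 libraries. All 10 members had negative values, as did 50.3% of all genes, meaning a lower ∆Ig3-MuSK to WT ratio in the soleus than in the TA, from −1.33 for Thbs1 (standard error 0.37) and −1.17 for Tnc (standard error 0.43) to −0.27 for Sparc (standard error 0.18). None passed: edgeR's quasi-likelihood test called 0 of the 10 members and 0 of 20841 genes (0.0%), and the members' adjusted p ran from 0.102 to 0.342. At an unadjusted p under 0.05 it found 8 of the 10, all except Postn and Sparc, and 11.2% of all genes in that direction. DESeq2 called 4 members (Thbs1, Loxl2, Fbn1 and Eln) and 5.03% of all genes. Limma-voom without a block called 0 members and 0.0% of all genes. Without WT TA replicate 9, the library highest in all 10 members, edgeR called 5 (Fn1, Thbs1, Loxl2, Fbn1 and Eln) and 6.93% of all genes, and without ∆Ig3-MuSK TA replicate 3 it called Thbs1 and 4.69% of all genes.

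Within groups, the members varied together from library to library. After the mean of each group was removed, the 45 pairs of members had a median Pearson r of 0.70 across the 18 soleus libraries, from 0.08 for Thbs1 and Eln to 0.95 for Postn and Tnc. In the TA the median was 0.47 and the pattern was in 2 parts, which were named after the values were seen. Postn, Sparc, Tnc, Thbs1 and Lox correlated with each other at 0.57 to 0.84, and Fn1, Loxl1, Loxl2, Fbn1 and Eln with each other at 0.32 to 0.85. Between the parts r ran from −0.06 for Postn and Eln to 0.53, with a median of 0.29. In the soleus the same pairs between the parts had a median of 0.66. These are descriptions over 18 libraries that share depth and scaling, and in the soleus they include the 2 libraries that stood apart.

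**Figure D4:**
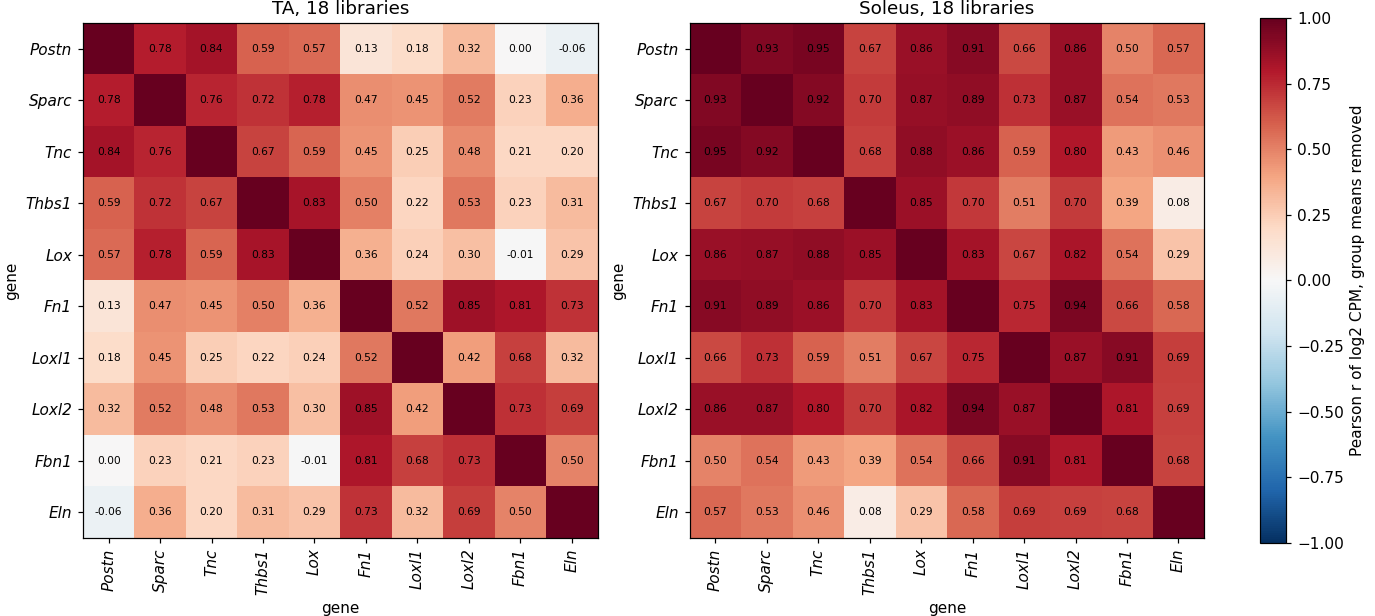
Pearson r between each pair of the 10 genes across the 18 libraries of the TA (left) and of the soleus (right), on log2 CPM with the group means removed. In the TA the upper left and lower right blocks are red and the rest is pale, down to −0.06 for Postn and Eln; in the soleus nearly all pairs are red, up to 0.95 for Postn and Tnc.

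Periostin and tenascin-C were the closest pair in the soleus (r = 0.95) and among the closest in the TA (r = 0.84), and a promoter entry exists in RefSeq's GRCm38.p6 table for both. Of the 10 members, 4 have an entry there (Postn, Sparc, Tnc and Fbn1), and the Sparc and Fbn1 windows overlap annotated exons and are not shown. The 250 bases before the start of Postn (chr3:54360857-54361106, plus strand) and of Tnc (chr4:64047016-64047265, minus strand) are given 5′ to 3′, with matches to the searched motifs in capitals.
Postn: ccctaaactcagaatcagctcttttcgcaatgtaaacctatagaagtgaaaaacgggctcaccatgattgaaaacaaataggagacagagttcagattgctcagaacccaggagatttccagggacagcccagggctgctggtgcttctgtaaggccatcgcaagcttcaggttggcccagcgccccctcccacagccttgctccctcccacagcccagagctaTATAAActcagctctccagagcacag
Tnc: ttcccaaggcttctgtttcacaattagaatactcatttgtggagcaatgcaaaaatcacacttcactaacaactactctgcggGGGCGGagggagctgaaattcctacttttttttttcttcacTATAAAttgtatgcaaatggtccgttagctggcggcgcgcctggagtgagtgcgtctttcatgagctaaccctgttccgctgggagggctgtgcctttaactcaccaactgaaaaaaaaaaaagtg
The motifs searched on both strands were TATAAA (the TATA box), TGANTCA (the AP-1 consensus), CATTCC (the TEAD core) and GGGCGG (the GC box), and no match overlapped another. Both windows hold 1 TATAAA, which 12.4% of the 32851 windows of this length hold. The Tnc window also holds 1 GGGCGG, found in 32.7% of windows. Neither holds TGANTCA (6.75% of windows) or CATTCC (12.6%). The table holds 2 entries each for Postn and Tnc, and the windows shown lie at the annotated starts of the genes. The other Postn window (chr3:54359017-54359266) holds none of the 4 motifs. The other Tnc window (chr4:64046937-64047186) overlaps the one shown, reaches into an exon and holds 1 TATAAA and 1 GGGCGG. A match is a description of these letters only.

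The gene most like each member across the 36 libraries, by Pearson r after group means were removed, was in most cases another gene of connective tissue. For Sparc it was Col1a2 (r = 0.93), a chain of type I collagen, and for Fbn1 it was Col5a1 (0.89), a chain of type V collagen. Fn1 was closest to Mrc2 (0.95), a receptor that takes up collagen for degradation. Postn was closest to Timp1 (0.90), an inhibitor of matrix metalloproteinases. Loxl1 was closest to Cd248 (0.89), a surface protein of pericytes and fibroblasts. Lox was closest to Serpinf1 (0.87), Tnc to Tmem119 (0.90) and Eln to Klf3 (0.85), a transcriptional repressor. The closest genes of Thbs1 and Loxl2 were those that share sequence with them, the overlapping lincRNA Gm29233 (0.95) and the pseudogene Gm21451 (0.96). Next to these came Abi3bp (0.89) for Thbs1 and Col6a1 (0.93), a chain of type VI collagen, for Loxl2.

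Other matrix genes, taken from 4 lists, mostly lay on the same side in the ∆Ig3-MuSK soleus, with 1 of 59 called. Over all genes tested there, 0.952% were called, 10.1% were lower at an unadjusted p under 0.05 and 50.6% lay below 0. Of the 15 genes of elastic fibers and microfibrils, 14 were below 0 and 12 had an unadjusted p under 0.05, and their median was −0.37 on the log2 scale. The smallest p was that of Emilin1, which sits at the elastin surface, at −0.60 (standard error 0.16, edgeR adjusted p = 0.0593). All 19 genes of collagen processing and crosslinking were below 0 (median −0.30), led by Serpinh1, the collagen chaperone, at −0.45 (standard error 0.12, edgeR adjusted p = 0.0602). All 7 fibrillar collagen genes were below 0 (median −0.70), led by Col1a1 at −0.97 (standard error 0.28, edgeR adjusted p = 0.0832). Their sum was highest in WT soleus replicate 7 (2117 CPM) and lowest in ∆Ig3-MuSK soleus replicate 8 (296 CPM). These are the 2 libraries that stood apart for the members, and the 4 lists were not refitted without them. Of 18 other matricellular genes 17 were below 0 (median −0.35), and Ccn1, a matricellular protein induced quickly by growth factors and stretch, fell by 0.76 on the log2 scale (standard error 0.14, edgeR adjusted p = 0.0219). For this soleus the authors report raised matrix and collagen fibril pathways by gene set enrichment of these same RNA-seq libraries. In sections they report more wheat germ agglutinin staining and more type I collagen protein. Those directions are opposite to the fold changes given here. The enrichment is another method on the same libraries, and the stainings are another measure. With DESeq2, which the authors used for single genes, all 10 members also lay below 0, and the 4 lists were not refitted with it. The reason for the difference was not tested. In the TA 0 genes of the 4 lists were called between genotypes. Within each list the smallest unadjusted p there was that of P4ha1 at −0.15, Ltbp1 at 0.22, Tnxb at 0.44 and Col5a1 at 0.12, with edgeR adjusted p of 0.163, 0.163, 0.163 and 0.533.

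The same lists were mostly higher in the soleus than in the TA in WT, where 30.2% of all genes were called higher and 27.3% lower. Of elastic fiber and microfibril genes 13 of 15 rose, and Fbn2, a fibrillin best known from development, had the largest log2 difference at 2.70 (standard error 0.31). Of the other matricellular genes 11 of 18 rose and 1 fell, and Comp, a matrix protein of cartilage and tendon, had the largest at 3.03 (standard error 0.37). Of fibrillar collagens 4 of 7 rose, with Col11a1 at 2.04 (standard error 0.37), and of collagen processing genes 11 of 19 rose and 1 fell, with Loxl4, another lysyl oxidase, at 0.70 (standard error 0.22). In ∆Ig3-MuSK, 10 elastic fiber and microfibril genes rose and 0 fell, 11 other matricellular genes rose and 1 fell, 4 collagen processing genes rose and 5 fell, and 1 fibrillar collagen rose and 1 fell, where 28.5% of all genes were called higher and 27.6% lower.

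Markers of the cells that make or neighbour the matrix differed in direction and size from list to list. In the ∆Ig3-MuSK soleus all 7 tendon markers were below 0 (median −0.67) with 4 at an unadjusted p under 0.05, and 0 were called with edgeR. Their sum had a median of 351 CPM against 535 CPM in the WT soleus. All 7 tendon markers were called higher in the soleus than in the TA in both genotypes, and 2 of them, Comp and Thbs4, are also among the other matricellular genes. Of 10 fibroblast markers 9 were below 0 with a median of −0.13, 1 had an unadjusted p under 0.05 and 0 were called. The fibroblast sums were 730 to 1562 CPM in the ∆Ig3-MuSK soleus and 1059 to 1442 CPM in the WT soleus. All 8 macrophage and leukocyte markers were below 0 (median −0.37, 0 called and 0 at an unadjusted p under 0.05). Their sum ran from 16.6 CPM (replicate 2) to 87.0 CPM in the ∆Ig3-MuSK soleus, with a median of 54.1 CPM. In the WT soleus it ran from 51.7 to 119 CPM (replicate 7), with a median of 61.0 CPM. Of 8 smooth muscle and pericyte markers 6 were below 0 (median −0.20) and 4 were lower at an unadjusted p under 0.05. Of these Acta2 fell (log2 fold change −0.38, standard error 0.09, edgeR adjusted p = 0.0496). The sum of all 8 had a median of 798 CPM in the ∆Ig3-MuSK soleus against 780 CPM in the WT soleus. Of 8 endothelial markers 6 were below 0 (median −0.09, 0 called). All 6 adipocyte markers were above 0 (median 0.54, 0 called), and all 8 Schwann cell markers were above 0 (median 0.17, 0 called). All 6 fast fiber markers were above 0 (median 0.21, 0 called and 1 at an unadjusted p under 0.05), with a median sum of 31484 CPM against 24687 CPM in the WT soleus, and 4 of 6 slow fiber markers were below 0 (median −0.06, 0 called). Between genotypes in the TA 0 markers of these lists were called. There too all 7 tendon markers (median −0.23, 2 at an unadjusted p under 0.05) and all 8 macrophage and leukocyte markers (median −0.19) were below 0. So were 8 of 10 fibroblast, 5 of 6 adipocyte, 3 of 8 smooth muscle and pericyte, 2 of 8 endothelial and 2 of 8 Schwann cell markers. Of fast fiber markers 3 of 6 were below 0 there, and of slow fiber markers 0 of 6. Of the markers of non-muscle cells only Mkx was at 0 in any library. The part of these cell types in the members' differences was not tested.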

How the data were processed

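RNA-seq libraries without strand information were made from 9 TA and 9 soleus muscles of each genotype. The submitters' processing notes name FastQC, Trimmomatic, GSNAP, SAMtools and HTSeq and the GRCm38 build. The authors deposited whole-number counts per Ensembl gene ID, not normalized, in 1 table per muscle, and the annotation release and the counting mode are not given in the sources used here. Symbols and coordinates (GENCODE vM21, GRCm38) were found for 51719 of 51912 IDs. Groups and replicate numbers came from the labels, and the tables held 0 columns from outside this series' samples. The 10 members and all gene lists were chosen with earlier results of these data known.

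Genotypes were compared within each muscle (18 libraries) and muscles and the interaction in 1 fit of 4 group means (36 libraries), both with edgeR 4.0.16 in R 4.3.3: genes kept by filterByExpr (minimum count 10, minimum total count 15), TMM scaling, glmQLFit and glmQLFTest without covariates, Benjamini-Hochberg adjustment over all genes tested. Genes were called at an adjusted p under 0.05 and at least 1.2-fold, the interaction without the fold limit. No label names a shared source for libraries of a group. A label number occurs in both muscles for 8 WT and 8 ∆Ig3-MuSK pairs and may mark the same animal. The authors' figure legend gives 1 muscle per animal, which does not say whether the TA and soleus animals were separate. The fits of 36 libraries treated all libraries as independent. The edgeR standard errors were taken as the absolute log2 fold change over the square root of the test's F statistic. They rest on the spread between libraries, which edgeR moderates across genes. Totals of 43492062 to 78660422 counts made counting error small except for Tnc. Log2 CPM used a prior count of 2, and RPKM divided CPM by merged exon length. Shared sequence was counted as identical stretches of 50 bases, listed from 1% of a member's transcripts.

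The text names the 10 members, Musk, for each member the gene with the highest correlation, and in each matrix list the gene with the smallest p in each muscle and the largest muscle difference in WT. Other names were chosen after their values were seen: those of single libraries' markers, the called markers, and the genes next in likeness to Gm29233 and Gm21451. Alternatives were DESeq2 1.42.0, limma-voom 3.58.1 with sample quality weights or with the label number as a block, RLE and upper-quartile factors, other filters, no fold-change minimum, 1 fit of all libraries, the replicate number as a block and each library left out in turn (72 refits). On simulated counts in which 200 genes differed by 1 log2 unit, 97.5% were recovered for the genotype in the soleus among 19304 genes. For the interaction, 95.5% were recovered among 20550 genes. Of the genes called there, 2.99% for the genotype in the soleus and 5.91% for the interaction were false. Recovery of the members themselves, which vary together between libraries, was not tested.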

Additional observations from a re-analysis of the deposited data

Results flagged for a closer look

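In 8 of 40 combinations of a member and a group, the highest or the lowest of the 9 libraries was set apart from the nearest other library by more than Dixon's 95% critical value for 9 values, taken as a share of the group's range. Chance alone flags about 1 group in 20, and the members vary together, so these are not separate events. WT TA replicate 9 was set apart as the highest library for Fn1 (79.5 CPM, next 50.4), Thbs1 (16.9 CPM, next 9.96) and Loxl1 (19.7 CPM, next 16.0). WT soleus replicate 7 was set apart as the highest for Tnc (22.5 CPM, next 9.54), Loxl1 (47.5 CPM, next 31.0) and Fbn1 (237 CPM, next 113). ∆Ig3-MuSK soleus replicate 8 was set apart as the lowest for Postn (5.36 CPM, next 31.9) and Sparc (149 CPM, next 233).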

How the results depend on the processing

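Between genotypes in the soleus 1 member was called in the reported fit, 6 with 1 fit over the 36 libraries, 3 with DESeq2, 2 with limma-voom and sample quality weights, 4 with the replicate number as a block, and 0 without WT soleus replicate 7 and ∆Ig3-MuSK soleus replicate 8 (chosen after the data were seen); leaving out 1 library gave 0 to 4 (22 to 602 of all genes). The cause was not tested. Over all genes these settings called 185, 312, 486, 653, 347 and 84 genes. For the interaction 0 members were called in the reported fit, 4 with DESeq2 (1049 of all genes) and 0 to 5 on leaving out 1 library (0 to 1450 of all genes). The counts for the genotype in the TA (0) and for the muscles in WT (9) were the same under every alternative run, and the count for the muscles in ∆Ig3-MuSK was 6 or 7.

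Directions changed only for values near 0 that were not called. In the TA, limma-voom with sample quality weights gave log2 fold changes of 0.083 for Postn, 0.0060 for Tnc and 0.026 for Thbs1, and leaving out 1 library gave −0.21 to 0.016 for Postn, −0.13 to 0.048 for Tnc, −0.17 to 0.048 for Thbs1 and −0.019 to 0.12 for Loxl2. Between muscles in WT, Tnc was at −0.027 with limma-voom, −0.014 with the label number as a block, −0.26 to 0.33 on leaving out 1 library (the lowest without WT soleus replicate 7) and −0.26 without the 2 libraries. The replicate numbers do not pair the genotypes: same-numbered WT and ∆Ig3-MuSK libraries carry different label numbers, and their deviations correlated at −0.28 to 0.31 in the soleus and −0.13 to 0.39 in the TA. A TA and a soleus library that share a label number correlated at 0.03 to 0.28, over 0.1 for 7 of 16 pairs, and with the block on that number limma-voom called 0 members and 9 genes for the interaction (0 and 0 without it) and 7 members for the muscles in ∆Ig3-MuSK (6 without it). Depth limited only Tnc, at 17 counts in ∆Ig3-MuSK soleus replicate 8.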
